A study of Homo sapiens with 8 samples.

Results

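OCT4 binding in H9 cells was described through 1 list of peaks, regions where DNA recovered with an antibody to OCT4 was enriched over an IgG control from the same line. H9 is a human embryonic stem cell line. All peaks of that list on chromosomes 1 to 22 and X were taken, which gave 29552 of the 201619 peaks in the 6 lists of the study. The study mapped OCT4, SOX2 and NANOG by chromatin immunoprecipitation and sequencing (ChIP-seq) in H9 and in NT2/D1 embryonal carcinoma cells, with an IgG control in each line, 8 samples in all. Sonicated chromatin was captured on antibody-linked magnetic beads and sequenced on a SOLiD instrument. The labels describe the H9 cells by line and cell type, with no genotype, treatment or passage. The OCT4 and the IgG group each held 1 library, so there was no replicate, no spread between replicates could be given and no test between groups was possible. The OCT4 library had 77649240 unique tags (sequenced fragment ends with a position of their own) of 93717852, or 82.9%. The IgG library had 58012070 of 84245266, or 68.9%.

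OCT4, the product of POU5F1, is a POU-family transcription factor that keeps early embryonic cells and embryonic stem cells pluripotent. It reads an octamer, 8 letters long, with its POU-specific domain and its homeodomain, and often binds beside SOX2 at enhancers, the distal switches of genes. In stem cells it is known to occupy the genes of the pluripotency network itself, and also developmental genes that are held silent until cells differentiate.

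The octamer is shown first because it is the sequence this factor is known to read. The letters ATGCAAAT and their other strand ATTTGCAT were searched in RefSeq promoter windows of GRCh38.p14, which run from 250 bases before to 50 bases after a gene start. The peaks are on hg19, and no hg19 sequence was used here, so a window was tied to a peak by gene only and the letters below were not placed inside a peak. Of 324 windows of genes whose start was overlapped by an OCT4 peak, 9 held the octamer (2.78%, 95% interval 1.47 to 5.19). Over all 9038 windows that could be used it was in 150 (1.66%, 1.42 to 1.94), and in windows of genes with no peak within 50 kb in 84 of 4879 (1.72%, 1.39 to 2.13). These intervals overlap. With only the upper 50% of peaks by score, it was in 8 of 196 overlapped windows (4.08%, 2.08 to 7.85). That interval lies just above that of all windows, which include these, but overlaps that of windows with no peak within 50 kb. Here and below, intervals are Wilson intervals at 95% and cover counting error only, since the tags carry no molecular identifiers and genes are not replicates. The stretches shown are those of 5 of the 9 genes, chosen after the values were seen, with the octamer in capitals and 30 bases on each side, 5′ to 3′ on the gene's strand.
H2AC17 (chr6:27893246-27893313, minus strand): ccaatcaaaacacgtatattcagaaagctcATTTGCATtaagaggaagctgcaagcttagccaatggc
ATF7IP (chr12:14365509-14365576, plus strand): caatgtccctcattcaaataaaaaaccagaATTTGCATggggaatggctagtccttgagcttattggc
HDAC9 (chr7:18495660-18495727, plus strand): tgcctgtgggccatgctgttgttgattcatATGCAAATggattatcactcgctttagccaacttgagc
H2BC6 (chr6:26183623-26183690, plus strand): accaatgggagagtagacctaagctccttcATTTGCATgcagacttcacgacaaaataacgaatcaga
NEUROG1 (chr5:135536067-135536134, minus strand): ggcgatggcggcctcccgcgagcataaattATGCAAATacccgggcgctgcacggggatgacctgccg
H2AC17 and H2BC6 encode histones, and octamers are long known in histone gene promoters. Their start-overlapping peaks held 116 tags (score 92.2) and 65 tags (score 52.3). ATF7IP, a partner of a histone methyltransferase, had 78 tags, HDAC9, a histone deacetylase, 46 tags, and NEUROG1, a factor that starts neuron formation, 23 tags. The octamer-SOX composite, the SOX letters CATTGT followed by any base and the octamer, on either strand, was in 0 of the 324 windows, which allows a share of up to 1.17%, and in 1 of 9038. The SOX letters alone, CATTGTT on either strand, were in 17 of 324 (5.25%, 3.30 to 8.24), against 189 of 9038 (2.09%, 1.82 to 2.41). In windows of all genes with a peak within 1 kb they were in 31 of 1404 (2.21%, 1.56 to 3.12). Both the octamer and the SOX letters are rich in A and T, and the overlapped windows were lower in GC content. Their median GC was 58%, and 57.3% with the upper 50% of peaks by score, against 63.7% over all windows. The part of base composition in these shares was not tested. A match is a string of letters and was not shown to be a bound site.

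Peaks were mostly short, of modest height and centred on their summits. The number of tags in a peak had a lowest value of 13, a median of 32 and a highest value of 1165. Width ran from 127 to 5554 bp with a median of 408 bp, and the authors' fold enrichment over background from 2.27 to 31.2 with a median of 4.52. The score, read as 10 times the negative log10 of the caller's p-value, started at the calling limit of 30, had a median of 42.0 and reached 1516.5. A score under 40, close to that limit, was held by 13482 peaks (45.6%), and a score of at least 100 by 3444 (11.7%). The summit, the point of highest coverage, lay at a median of 50.4% of the width from the left edge. All peaks together covered 13.7 Mb and held 1225228 tags, 1.58% of the unique tags of the library.

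A peak with many tags was in the first place a wide one. Across peaks, tags went with width (Spearman rho 0.95), less with score (0.72) and hardly with fold (0.21). These are descriptions over peaks of 1 library, which share its depth, and tags and width come from the same coverage. Density was far more even than tag number, at a median of 77.6 tags per kb with a range of 56.5 to 346.7. The 37 peaks wider than 2000 bp had a median fold of 3.36 and a median score of 60.7. The deposited false discovery rate (FDR) was at most 5% for 11535 peaks (39.0%), and its lowest value, 2.49%, was at a score of 80.7. All 279 peaks from a score of 341.8 upward had a deposited FDR over 5%, so an FDR limit removes the strongest peaks together with the weak ones.

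The peaks with the highest scores named here and in the next paragraph all lay more than 1 kb from a gene start. The highest, with 296 tags and a fold of 23.4, was 13.4 kb downstream of the start of FBRS, a Polycomb-associated gene (chromosome 16, 30689156 to 30690010, hg19). A peak with the highest fold of the list, 31.2, lay 711.1 kb upstream of MAP3K7, a kinase of TGF-beta and inflammatory signalling, and held 267 tags. These peaks had scores of 1516.5 and 1425.6 and were of similar width, 855 and 871 bp. Their deposited FDR was 100% and 66.7%.

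The genes nearest to the other strong peaks had varied roles. A peak 8.19 kb from a start of MIR9-2HG, a noncoding RNA gene that holds a copy of miR-9, had 244 tags, a fold of 25.2 and a score of 1294.3. ANKRD1, a stress-responsive muscle protein gene, had its strongest peak 4.03 kb upstream with 266 tags and a score of 1286.9. ETV6, an ETS-family repressor, followed with a peak 40.1 kb upstream (278 tags, score 1140.9), and SHB, a signalling adaptor, with a peak 145.1 kb upstream (207 tags, score 1120.5). PRDM14, a regulator of human pluripotency and of germ cells, had a peak 93.5 kb downstream of its start with 240 tags and a score of 1029.1. WNT3, a ligand that starts primitive streak formation, had a peak 45.9 kb downstream with 173 tags and a score of 864.1. The other leading peaks were nearest to IMPG1, PPP1R3B, RCC2, KCNJ2, CD226, PTPRZ1, SLC25A13, NMNAT2, DPP6 and CNTN5, with scores between 789.5 and 1045.6. Their distances ran from 14.6 kb at NMNAT2 to 1163.7 kb at CNTN5. Over all the peaks of this paragraph, the deposited FDR ran from 25% at CNTN5 to 75% at MIR9-2HG.

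The peaks with the most tags were mainly other ones than those with the highest scores. A peak of 5554 bp with 1165 tags was nearest to ANKRD20A3, 484.5 kb away, with a fold of 3.23 and a score of 60.7. A peak of 5384 bp with 939 tags near FRG1BP had a fold of 2.6, and one of 4239 bp with 639 tags near BAGE had a fold of 2.74. ANKRD20A3, FRG1BP, BAGE, CROCCP3 and PTGER4P2-CDK2AP2P2 belong to families with near-identical copies or pseudogenes, so the place of their tags is uncertain. A peak of 4802 bp and 680 tags was 35.5 kb upstream of FCGR2A, an antibody receptor gene, which has 31 transfer RNA (tRNA) genes within 100 kb in the RefSeq table. Of the named peaks by tags, the one near CECR1 (432 tags) had a score of 503.5. The others named here had scores from 30.1 to 124.6.

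Most OCT4 peaks were distal. Each peak was listed with the gene start ahead of it and the gene start behind it, and the nearer of these was used. A start was overlapped by 670 peaks (2.27%, 2.10 to 2.44), and 3096 lay within 1 kb (10.5%, 10.1 to 10.8). Within 10 kb lay 7641 peaks (25.9%), within 50 kb 15587 (52.7%) and beyond 500 kb 2132 (7.21%). The median distance was 43.6 kb, and 557 peaks were more than 1000 kb from any listed start. The farthest peak, with 24 tags, was 2660.8 kb from PCDH7, a protocadherin gene, and the 5 farthest all lay between PCDH7 and ARAP2 on chromosome 4.

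Close to genes the summits were not spread evenly. The most crowded 100 bp stretch ran from 300 to 200 bp upstream of the start, with 255 summits, against a median of 23.5 per 100 bp between 4 and 5 kb upstream and 26 between 4 and 5 kb downstream. Density was 210 summits per 100 bp from 500 to 250 bp upstream and 172.8 over the last 250 bp before the start. It was 111.6 over the first 250 bp of the gene and 98.4 from 250 to 500 bp. Among peaks within 1 kb that did not overlap a start, 1379 lay upstream and 1047 downstream (56.8% upstream, 54.9 to 58.8). From 1 to 5 kb the order was the other way, with 45.9% upstream (44.0 to 47.8), and over all peaks off a start it was 46.0%.

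**Figure D1:**
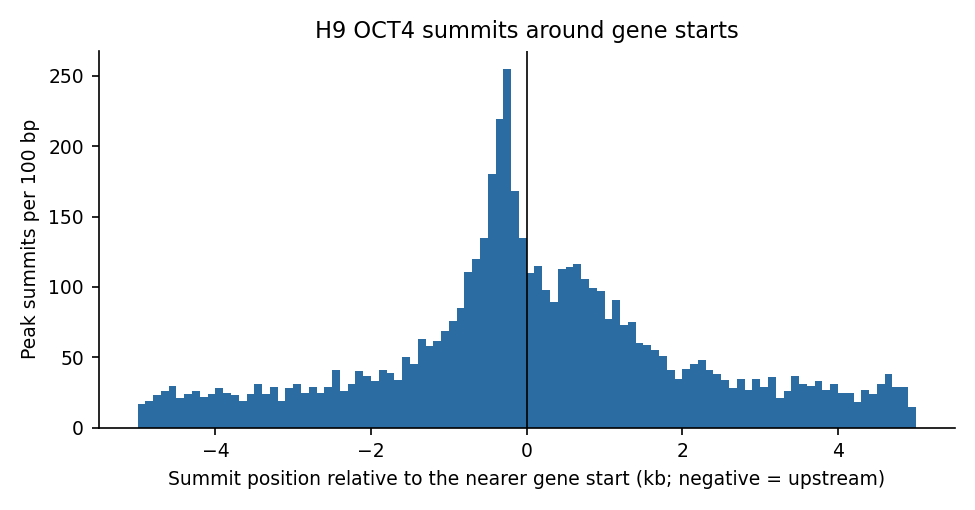
Number of H9 OCT4 peak summits in each 100 bp, by position relative to the nearer gene start (kb, negative is upstream), counted over 1 library. The highest bar, 255 summits, stands from 300 to 200 bp upstream, and a lower shoulder follows downstream of the start.

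The position of peaks differed by score. In the lowest decile of score 10.6% of peaks (9.56 to 11.8) lay within 1 kb of a start, and in the fifth and the seventh decile 13.0% each (11.8 to 14.2). In the ninth decile it was 7.38% (6.49 to 8.38) and in the highest 3.42% (2.82 to 4.14). The share beyond 500 kb was 5.85% (5.06 to 6.76) in the lowest decile and 10.7% (9.60 to 11.8) in the highest, and the median distance 37.5 and 72.2 kb. The highest decile thus held the smallest share of promoter peaks, and the middle of the list the largest. Of the 100 peaks with the highest scores, 3 lay within 1 kb, 0 overlapped a start and 52 lay beyond 50 kb (42.3 to 61.5%). Over all peaks, 10.5% lay within 1 kb, 2.27% overlapped a start and 52.7% lay within 50 kb. The count of these 100 beyond 50 kb was thus near the share of all peaks. Of the first 1000, 20 lay within 1 kb and 608 beyond 50 kb (60.8%, 57.7 to 63.8).

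**Figure D2:**
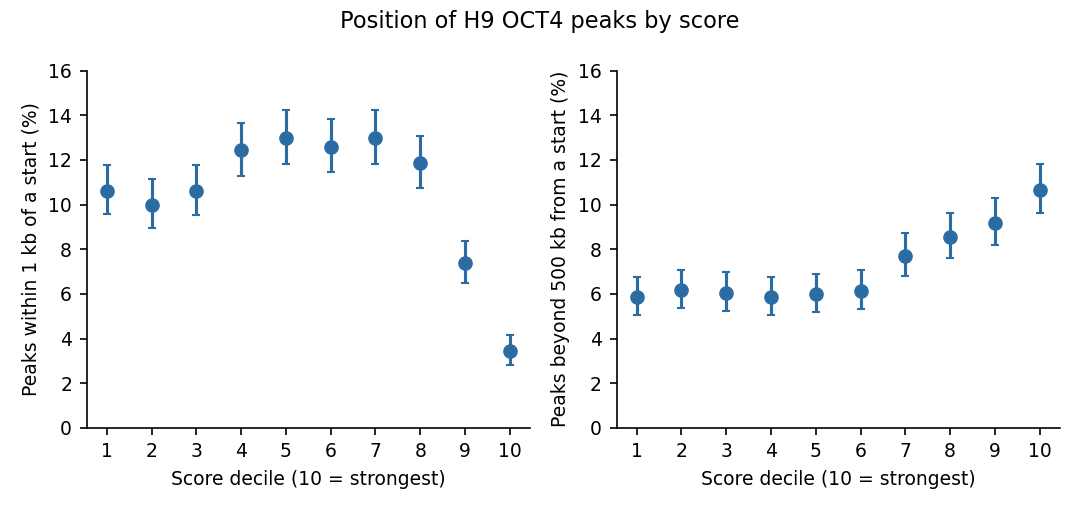
Share of H9 OCT4 peaks (%) within 1 kb (left) and beyond 500 kb (right) of a gene start, in 10 equal groups of peaks by score. Points are shares and bars 95% Wilson intervals, and the share within 1 kb is 3.42% in the highest decile against 10.6% in the lowest.

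Peaks over starts were wider than distal ones and held more tags, but had a lower fold. Start-overlapping peaks had a median of 44 tags and 531.5 bp, peaks from 1 bp to 1 kb 31 tags and 412 bp, and peaks beyond 500 kb 33 tags and 395 bp. Overlap itself is easier for a wide peak. The median score was 45 at starts, 39.4 up to 1 kb and 47.4 beyond 500 kb, and the median fold 4.22, 4.12 and 4.87. The upper ends differed more than the medians: the 95th percentile of score was 113.1 at starts, 84.7 up to 1 kb and 210.4 beyond 500 kb. Of the peaks within 1 kb, 51.9% held more tags than the median distal peak, but 45.4% had a higher score and 31.9% a higher fold.

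The strongest start-overlapping peak was at TFAP2A, a factor of trophoblast and neural crest, with 276 tags over 2911 bp, a fold of 10.7 and a score of 353.4 (chromosome 6, 10415033 to 10417943). It was followed by MACROH2A1, a variant histone gene, with 110 tags, a fold of 9.11 and a score of 282.7. FBXO40, a ubiquitin ligase subunit gene of muscle, had 147 tags, and GJC1, which encodes a gap junction protein, had 111. LRRTM3, RMST, THEM4, SNRPN, VPS51 and VTRNA1-3 made up the rest of the first 10, with scores from 158.2 to 183. RMST is a long noncoding RNA of neural differentiation and SNRPN an imprinted gene. Just beside starts, and chosen after the values were seen, PRICKLE1, a planar polarity gene, had a stronger peak 143 bp upstream with 166 tags and a score of 675.5. TGIF1, a repressor of SMAD signalling, had one 880 bp downstream with 196 tags and a score of 549.

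The base composition of promoters depended on the measure and on how close the peak was. A GC content of at least 60% was found in 131 of 324 windows whose start was overlapped (40.4%, 35.2 to 45.9), against 5726 of 9038 windows in all (63.4%, 62.4 to 64.3). Where the nearest peak was anywhere within 1 kb, overlap included, it was 1012 of 1404 (72.1%, 69.7 to 74.4), and where a summit fell inside the window 145 of 269 (53.9%, 47.9 to 59.8). An observed-to-expected CpG ratio of at least 0.6 went the other way at overlapped starts, with 250 of 324 (77.2%, 72.3 to 81.4) against 6436 of 9038 (71.2%, 70.3 to 72.1). The windows are those whose start keeps the same spacing to neighbouring starts in both builds, 65.7% of those with a window and a recovered start. The share of peaks near starts also differed by chromosome: 22.9% of the peaks on chromosome 19 and 16.6% on chromosome 17 lay within 1 kb of a start, against 3.05% on X and 4.95% on 21. The density of gene starts on each chromosome was not set beside these shares, and its part in them was not tested.

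Many genes had several peaks. Within 50 kb, 15584 peaks were assigned to 8894 genes. A single peak was assigned to 5303 genes (59.6%), 2 to 2067 genes, 3 to 4 to 1164 genes, 5 to 9 to 336 genes and 10 or more to 24 genes. The 3591 genes with at least 2 held 10281 peaks, 66.0% of those assigned. Genes with more peaks also had a stronger best peak: the median of a gene's highest score was 39.3 for genes with 1 peak, 51.4 with 2 and 125.5 with 10 or more. The median peak differed less, with a score of 39.3 and 46.0 at these ends. The highest of several peaks is higher by construction, and the territory, the stretch within 50 kb that is nearer to a gene than to other genes, had a median of 63.0 kb for genes with 1 peak and 98.3 kb for those with 10 or more.

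The gene with the most peaks had 16 within 50 kb. ZFHX3, a homeodomain and zinc finger factor of neurons, and NR2F2, a nuclear receptor of mesoderm and neural crest, had 16 each, with highest scores of 338.3 and 287.4. SOX2, the partner of OCT4, had 15. MIR9-2HG, SIX3, PAX6, HAND2, ZIC4 and GATA4 had 14 each. SIX3 and PAX6 are regulators of eye and forebrain, HAND2 of heart and limb, ZIC4 of cerebellum and GATA4 of heart and endoderm. LHX2, EN1 and POU3F3, homeodomain factors of brain and body patterning, had 13 each, as did ITGB4, an epithelial integrin gene. TBX3 had 12 and TFAP2A, SORBS2, TRIM27 and LINC00623 had 11 each. TCF7L2, which carries WNT signals, had 10.

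High number and high score were not the same thing. GATA4 had 14 peaks with a highest score of 70.2, and POU3F3 13 with a highest score of 77.0. FBRS had 1 peak with a score of 1516.5, and POU5F1 and TERF1, a telomere protein gene, 1 each with scores of 454 and 532.1. MIR9-2HG was high in both. SORBS2 and LINC00623 have starts far apart in the list (their peaks span 273.6 and 5304.2 kb), and TRIM27 has 15 tRNA genes within 100 kb, as H4C8, a histone gene with 10 peaks, has 13. Among all genes 0.455% had 5 or more tRNA genes within 100 kb, and among genes with 5 to 9 peaks 10 of 325 (3.08%, 1.68 to 5.57). The part of tRNA neighbours in these counts was not tested.

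**Figure D3:**
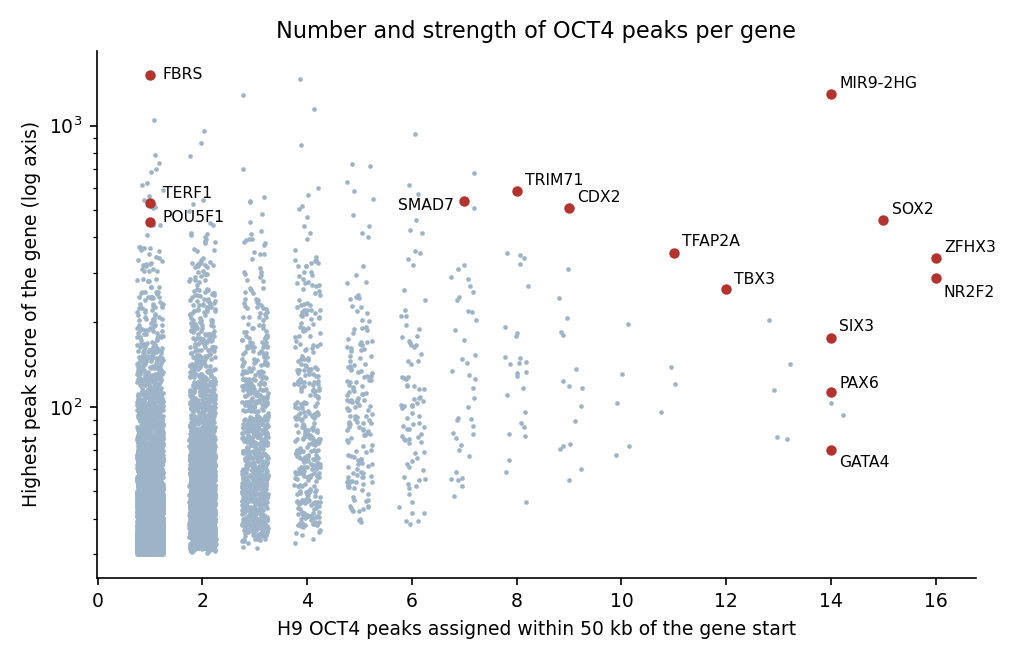
Each point is a gene with at least 1 H9 OCT4 peak within 50 kb; the x axis gives its number of peaks (small sideways jitter) and the y axis, a log axis, its highest peak score. Genes named in the text are in red: GATA4 and MIR9-2HG share 14 peaks but have highest scores of 70.2 and 1294.3.

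Several of these genes lay in dense runs of peaks. The median gap between neighbouring summits was 50.4 kb, and 6940 neighbouring pairs (23.5%) were at most 12.5 kb apart. When peaks up to 12.5 kb apart were joined, 18151 peaks stayed alone (61.4%), 248 runs held 5 or more and 25 held 10 or more. The run with the most peaks was the HOXB cluster on chromosome 17, where 34 peaks stood within 107.1 kb with a highest score of 136.3. HOX genes set the body axis and stand side by side in clusters. The HOXD cluster with EVX2 followed with 30 peaks in 107.1 kb and a highest score of 348.4. The next were 22 peaks at GALK1 and ITGB4 in 36.6 kb and 19 at ZIC1 and ZIC4 in 63.5 kb. Peaks in runs of 5 or more had a median of 40 tags and a fold of 4.27, against 30 tags and a fold of 4.52 for lone peaks, and were wider (493 against 390 bp). Their median score was higher, 45.0 against 41.0. These runs were chosen after their values were seen.

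Strong peaks also stood at MIR9-2HG, a host gene of the microRNA miR-9, and at LARP7, within which the miR-302 microRNAs lie. MicroRNAs silence messenger RNAs through their seed, bases 2 to 8, printed here in capitals because it sets which messages are bound. The mature sequences are from RefSeq (GRCh38.p14).
miR-9-5p: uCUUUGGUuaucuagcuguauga
miR-302a-3p: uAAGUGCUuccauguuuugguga
miR-302b-3p: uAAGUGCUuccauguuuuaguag
miR-302c-3p: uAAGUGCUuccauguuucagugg
miR-302d-3p: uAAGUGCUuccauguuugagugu
miR-367-3p: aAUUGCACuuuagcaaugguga
The miR-302 members share the seed AAGUGCU and are hallmark microRNAs of pluripotent cells. They are encoded together with miR-367 inside LARP7, on the strand opposite to that gene. LARP7, chosen after the values were seen, had 4 peaks from 7.68 to 14.6 kb downstream of its start. They held 199, 45, 291 and 168 tags, with scores of 281.1, 54.4, 514.7 and 598.8 and a highest fold of 17.8. All but the second were in the highest score decile, which starts at 109.1. miR-9 is a microRNA of neural progenitors that is made from 3 genes with the same mature sequence. MIR9-2HG had 14 peaks, of which those nearest its downstream side had 244, 218 and 184 tags and scores of 1294.3, 338.2 and 245.4. Its other 11 had scores from 31.2 to 130.3. MIR9-3HG, another host, had 8 peaks with a highest score of 192.4.

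Genes of the pluripotency network nearly all had a peak within 50 kb when all calls were counted. Of 38 core pluripotency genes 34 had a peak within 50 kb (89.5%, 75.9 to 95.8), beside 47.9% of all 18218 genes with a recovered start. Within 5 kb it was 29, beside 23.9%, and 5 had a peak over the start itself, beside 3.33%. At least 3 peaks were assigned to 18, beside 8.37%, and at least 5 to 7, beside 1.98%. The members' median territory was 74.2 kb and that of all genes 59.7 kb. DPPA2, DPPA3, TFCP2L1 and FGF4 had none. The label of the sample could be looked at through such loci only, since these files hold no expression values. The list was made of known OCT4 target loci in embryonic stem cells, with earlier results of these data known. Its share is therefore no independent check of the label.

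Among the factors themselves, POU5F1 had 1 peak, 1091 bp upstream of its start, with 296 tags over 1645 bp, a fold of 10.7 and a score of 454. SOX2 had 15 peaks, 4 upstream and 11 downstream. The strongest of these, 43.9 kb downstream, held 213 tags with a score of 461.2, and the next, 3.97 kb downstream, 122 tags with a score of 193.6. The other 13 had scores from 31.6 to 63.8. Beyond the window, a still stronger peak lay 430.9 kb downstream of SOX2 with 195 tags and a score of 643.8. NANOG had 3 peaks: one over its start with 71 tags and a score of 114.7, one 1.40 kb upstream with 61 tags and one 9.36 kb downstream with 65 tags. The position of the best peak therefore differed among the 3: near the start at POU5F1, on the start at NANOG and far downstream at SOX2.

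Other regulators of the network had their own patterns. TRIM71, an RNA-binding repressor of differentiation, had 8 peaks, led by one 36.4 kb upstream with 252 tags and a score of 584.5. JARID2, a Polycomb partner, had 8 with a highest score of 321.7, and OTX2, a factor of epiblast and forebrain, had 8 with a highest score of 339.4. L1TD1, an RNA-binding protein gene of stem cells, had 9 with a highest score of 135.9, and 1 of them overlapped its start with 77 tags. FOXD3 had 6 peaks (highest score 141.6), TCF7L1, a repressor in the WNT pathway, had 5 (167.2), and DPPA4, PRDM14, SALL4 and MYCN had 4 each. The 4 at PRDM14 had scores up to 61.0, far under that of its peak beyond the window. Nodal-pathway members of the list had peaks within 1 kb of their starts, but the strongest ones of LEFTY1, LEFTY2 and NODAL lay farther out. LEFTY1, an inhibitor of Nodal, had peaks 556 bp downstream, 814 bp upstream and 9.95 kb upstream, with 42, 137 and 223 tags and scores of 49.2, 318.6 and 394.7. LEFTY2 had a peak 439 bp downstream with a score of 40.1 and its strongest 4.18 kb upstream with 223.7. NODAL had one 380 bp upstream with a score of 62.3 and one 13.4 kb upstream with 193.6. GDF3, a related ligand, had 1 peak 701 bp downstream with a score of 187.4. CRIPTO, the Nodal co-receptor, had 2, at 272 and 1505 bp upstream, with scores of 33.6 and 102.8. Weak members were also present: LIN28A, which blocks let-7 microRNAs, had 2 peaks with scores of 42.0 each, ESRRB 2 up to 34.9, KLF4 2 up to 34.1 and TERT 1 with 31.4. LIN28B, ZFP42, UTF1, DNMT3B, KLF2, ZSCAN10, PODXL, MYC, CDH1 and RIF1 had 1 to 3 peaks each, with highest scores from 56.6 at DNMT3B to 260.6 at PODXL.

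**Figure D4:**
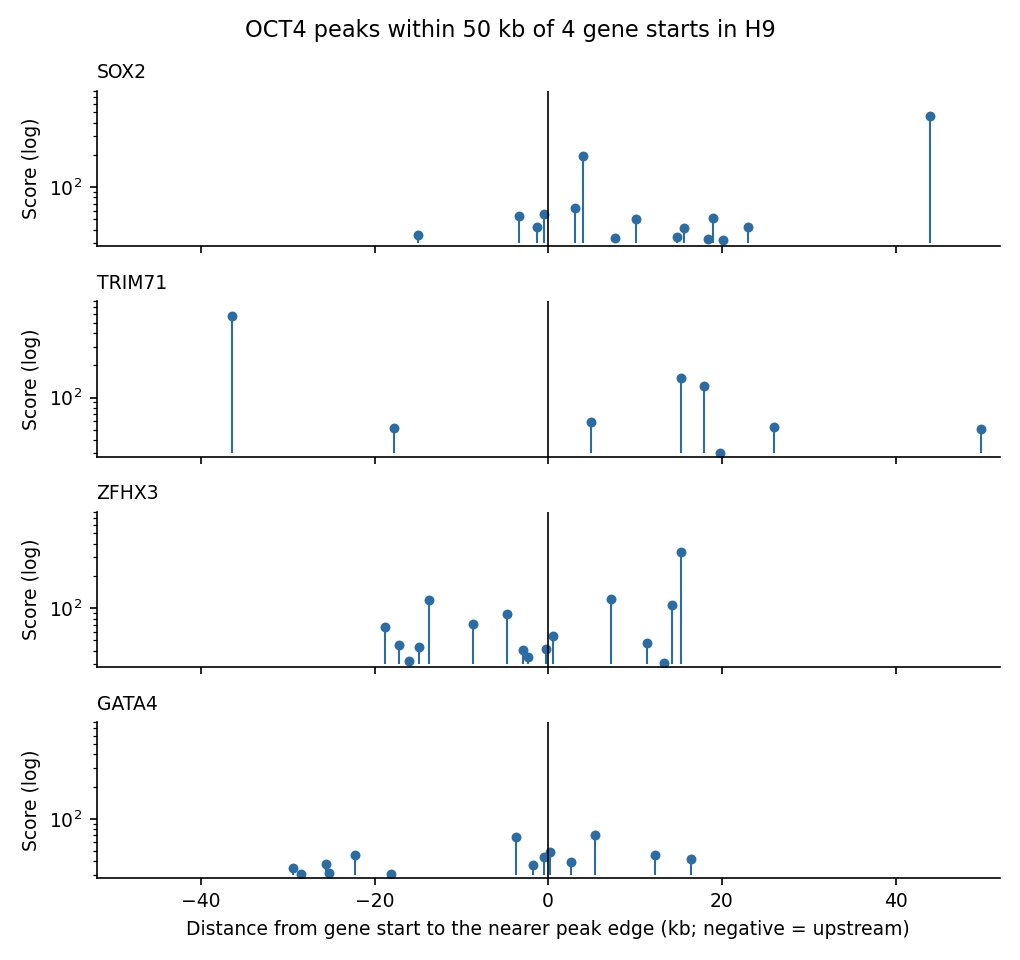
OCT4 peaks assigned to SOX2, TRIM71, ZFHX3 and GATA4 in H9, by distance from the gene start to the nearer peak edge (kb, negative is upstream) and by score on a log axis. The best peaks of SOX2 (461.2) and TRIM71 (584.5) stand 43.9 kb downstream and 36.4 kb upstream, and none of the 14 peaks of GATA4 exceeds 70.2.

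The 3 signalling lists had intervals that overlap each other. FGF, a growth factor that stem cells need, and its ERK cascade had a peak at 19 of 21 genes (90.5%, 71.1 to 97.4), 11 of them with at least 3 peaks. Over all genes 47.9% had a peak and 8.37% at least 3. SPRY4, a feedback inhibitor, had 6 with a highest score of 39.3, and FGF2, FGFR1 and IL17RD had 5 each, with highest scores of 82.0, 69.4 and 52.9. Of WNT genes 26 of 34 had a peak (76.5%, 60 to 87.6), led by TCF7L2 and the receptor FZD7 with 10 each. The receptors FZD2 and FZD8 had 6 and 4, with highest scores of 189 and 333.4. Of Nodal, TGF-beta and BMP genes 19 of 29 had a peak (65.5%, 47.4 to 80.1), an interval that holds the 47.9% of all genes. SMAD7, an inhibitor of the pathway, had 7 with a highest score of 538.4 (268 tags, 8.79 kb upstream), and the ligand BMP4 had 7 with a highest score of 308.3. SMAD3 had 5 and BMP2 had 4. In this list ACVR1B, ACVR2A, ACVR2B, TGFBR2, BMPR1A and BMPR2, all receptors, had 0 peaks, and TGFBR1 had 1 with a score of 30.1. The receptors were singled out after the values were seen, and 9497 of all 18218 genes also had no peak within 50 kb.

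Lineage regulators had more peaks per gene, by the median, than the pluripotency genes. Whether these genes are expressed in H9 was not measured here. Of 41 neural regulators 40 had a peak (97.6%, 87.4 to 99.6), 35 had at least 3 and 27 at least 5. Over all genes these shares were 47.9%, 8.37% and 1.98%. HES5 had none. Their median was 5 peaks a gene, against 2 for the core pluripotency genes and 0 for all genes, with a median territory of 85.7 kb. The median was 3 in the mesendoderm list and 3 in the trophectoderm list. Peaks of the neural regulators had a median score of 45.9, against 51.0 for core pluripotency genes and 41.0 for all assigned peaks. It was 43.3 in the mesendoderm list and 46.6 in the trophectoderm list, so all 3 were of lesser strength than the pluripotency genes. Mesendoderm regulators had a peak at 21 of 24 genes (87.5%, 69 to 95.7), of which 14 had at least 3. TBX3 had 12 with a highest score of 263.3, and SOX17, an endoderm factor, and MSX1, a homeodomain factor, had 7 each with highest scores of 55.2 and 52.5. Trophectoderm regulators had a peak at 15 of 17 genes (88.2%, 65.7 to 96.7). CDX2, a master factor of trophectoderm, had 9 within 15.1 kb, with 162 and 123 tags (scores 510.1 and 372.1) in its 2 strongest. HAND1, with 6 peaks, and MSX2, with 5, stand in the trophectoderm and the mesendoderm list.

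HOX genes had a peak at 35 of 38 (92.1%, 79.2 to 97.3), beside 47.9% of all genes, although their median territory was 12.8 kb. At an FDR of at most 5% the HOX share was 50%, beside 22.3% of all genes. In the upper 50% by score it was 65.8%, beside 27.7%. HOXB3 had 9, HOXA13 and HOXD3 6 each and HOXA3 5, with highest scores from 61.0 to 104.3. Since neighbouring HOX genes stand close, which of them a peak is assigned to rests on small distances. Chromatin regulators had a peak at 22 of 32 (68.8%). JARID2, also counted among the pluripotency genes, led them, followed by the demethylase gene KDM4C with 6. PHC1, a Polycomb subunit, and REST, which silences neuronal genes, had 3 each with highest scores of 294.2 and 240.8. EZH2, EED and SUZ12, the core of Polycomb complex 2, had none and were singled out after the values were seen. No peak within 50 kb was also the case for 9497 of all 18218 genes.

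Within 50 kb, the intervals of the lists of other functions all held the share of all genes. Cell cycle genes had a peak at 8 of 17 (47.1%), with 4 at CCND3 (highest score 248.9), 3 at CCND2 and 2 each at CDKN2A and CDK6. Germ cell genes had 8 of 20 (40%), with 2 peaks each at STK31 (highest score 66.0) and PIWIL1 (42.4), 1 at MAEL and a peak of 205 tags and a score of 443.6 at 4.14 kb from DPPA5, an RNA-binding protein gene of early embryos. Ribosomal protein genes had 11 of 24 (45.8%), with a median territory of 24.8 kb. Closer in they stood above all genes: 10 of 24 had a peak within 5 kb (41.7%, beside 23.9%) and 3 of 24 one over the start (beside 3.33%). RPS23, RPL19 and RPL7 had 2 each and RPSA had 1. Among markers of other cell types the counts were 9 of 19 for hepatocytes, 7 of 19 for muscle, 7 of 16 for immune cells and 9 of 17 for fibroblasts. The hepatocyte genes AFP, ALB and CPS1 had 2 each. In muscle MYF6, MYL2, ACTA1 and CKM had 2 each, and the peak at MYF6 reached a score of 251.4. PRF1, a perforin gene, had 4, ZAP70 3 and PTPRC 1. Of the fibroblast genes PDGFRA had 4 and VIM, COL6A1 and THY1 2 each. Of these 4 marker lists, none had a gene with 5 or more peaks, beside 1.98% of all genes. At that share, lists this small would hold few such genes or none.

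**Figure D5:**
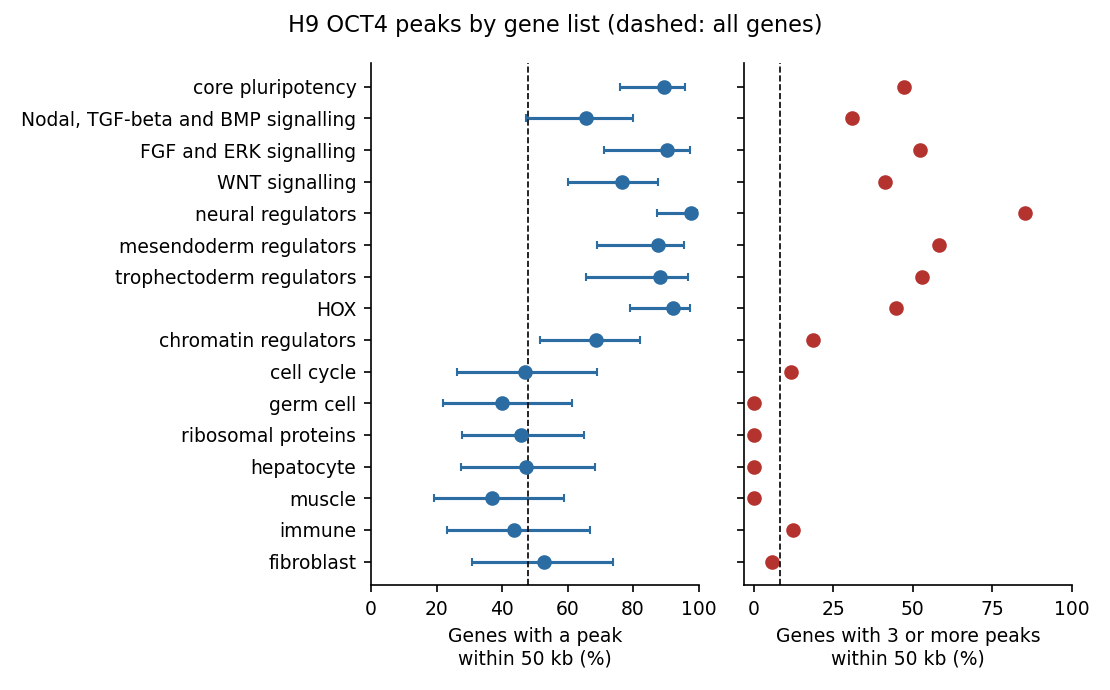
Share of the genes of each list with at least 1 (left, with 95% Wilson intervals) and with at least 3 (right) H9 OCT4 peaks within 50 kb, as a percent of members with a recovered start. Dashed lines give all genes (47.9% and 8.37%), and neural regulators stand highest on both panels.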

How the data were processed

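MACS called the peaks of the OCT4 library against the H9 IgG library, without pooling, with a p-value cutoff of 0.001, a band width of 2000, a model fold of 3 and a tag size of 50, per the file headers. Per the submitters' processing notes, coordinates are on hg19. The MACS version and the aligner are not given in the sources used here. For each peak the deposited tag count is an unnormalized whole number of ChIP tags. The authors' fold is a ratio to background, and the authors' FDR is given as a percent, per the file headers. The deposited score had lost its column name; it was taken as 10 times the negative log10 of the p-value, since its lowest value, 30, is that of the cutoff. These values of the authors describe and rank peaks within this list only.

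Flanking genes and distances were in the deposited list. One column pair gives the gene whose start lies ahead of the peak and the other that behind it, a reading that fitted the strand of 17038 of 17118 accessions (99.5%). Symbols came from RefSeq accessions (16043 of 16811 matched). Gene starts were recovered from peak edges and distances over the 6 lists where at least 2 peaks gave the same position, which was tested on simulated data. A peak was assigned to the nearer gene within 50 kb. Promoter windows were kept where the spacing to neighbouring starts agreed within 100 bp in both builds.

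Named are genes nearest the 20 peaks of highest score, the 10 with most tags, the 5 widest, the 10 strongest over a start and the 5 farthest; the 20 genes with most peaks; all core pluripotency genes; and up to 4 genes of each other list with most peaks. A few that the rule names are not reported here. The members, lists and rule were chosen with earlier results of these data known. Alternatives were an FDR limit of 5%, the upper 50% by score, leaving out the widest 1%, summit distances, other windows and both flanking genes; a shorter SOX and octamer composite was added after seeing the data. Python 3.11.15, pandas 2.3.3 and scipy 1.17.1 were used.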

Additional observations from a re-analysis of the deposited data

How the results depend on the processing

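Distances and counts moved with the choice of peaks, and none of the results below was tested. The share of peaks within 1 kb was 10.48% and came to 9.051% with an FDR of at most 5%, 9.644% in the upper 50% by score and 8.701% from the summit. The median distance of 43.6 kb came to 52.74, 49.7 and 45.19 kb in the same order. The share of promoter peaks with more tags than the median distal peak was 51.91% and came to 42.82% at an FDR of at most 5% and 44.42% in the upper 50%. Measured by score it was 45.35%, by fold 31.94% and by tags per kb 44.57%, so the side of 50% depends on the measure. The 3591 genes with at least 2 peaks came to 1034 at an FDR of at most 5%, 1455 in the upper 50% and 1303 within 10 kb; the first 2 use fewer peaks and the last a smaller window. Without the widest 1% of peaks, these 4 results stayed within their intervals or within 1.5 times. Between 9 and 14 of the 16 gene lists lay above the share of all genes over the settings tried, against 10 in the main setting. This counts any higher share, whatever its interval. Those 10 include the fibroblast list (52.9%, 31.0 to 73.8) and the Nodal, TGF-beta and BMP list, whose intervals held the share of all genes. The octamer share of 2.78% stayed within its interval in both other settings. In the upper 50% by score (4.08%, 2.08 to 7.85) its interval no longer overlapped that of all windows (1.42 to 1.94). It still overlapped that of windows with no peak within 50 kb (1.39 to 2.13). Overlapped windows were lower in GC content, and the part of base composition in this share was not tested. The composite less its first and last letter was in 1 of 324 windows under peaks and in 2 of 9038. Of single lists, 73 values stayed and 29 moved. At an FDR of at most 5%, the share with a peak came to 71.1% for core pluripotency genes, from 89.5%. It came to 57.1% for FGF and ERK genes, from 90.5%, and to 50% for HOX genes, from 92.1%. Neural regulators stayed, at 90.2%, and all genes came to 22.3%. No paired analysis was possible because each group held 1 library and no result came from a test. One library per group, calls down to a score of 30 and gene copies that share tags limit what these peaks show. A gene without a peak was not shown to be unbound at this depth.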
